A study of Rattus norvegicus with 12 samples.

Results

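Ucn and Cartpt, the genes of the peptide precursors of urocortin and of cocaine- and amphetamine-regulated transcript (CART), were followed in RNA sequencing of rat periaqueductal grey. They are 2 of 41596 genes made from the deposited transcript files, and both are among the 24540 that were tested, those whose mean over the libraries reached 0.5 TPM (StringTie's measure of a transcript's level, relative to its length and to the library's total). The pair was chosen by its measured TPM in all 12 libraries, which varied together, so their levels, their order and their likeness to other genes are descriptions and carry no test. The 12 libraries came from male Sprague Dawley rats, 6 sired by males given saline (saline-sired 1 to 6) and 6 sired by males given morphine (morphine-sired 1 to 6). The labels give neither the dose and schedule of the sires, nor the age of the offspring, nor litters or sires. The p-values therefore treat the 12 animals as independent. The study's title names the question, which is whether morphine exposure of the father alters the response of offspring to morphine.

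Neurons that hold both urocortin and CART peptides are known from the centrally projecting Edinger-Westphal nucleus, a peptidergic cell group on the midline of the midbrain, directly under the periaqueductal grey. It lies beside the cholinergic motor neurons of the oculomotor nucleus and in front of the serotonergic dorsal raphe. Urocortin is a relative of corticotropin-releasing factor (CRF) and binds both CRF receptors, and CART peptides are cut from a secreted precursor. The nucleus has been studied in stress, feeding and drug intake. In a dissected tissue, fewer cells of a type and less RNA per cell cannot be told apart.

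Ucn lies at chr6:26602144-26602974 on the plus strand of Rnor_6.0, with 1 annotated transcript of 2 exons and 570 bases. Cartpt lies at chr2:30125249-30127269 on the minus strand, with 3 exons. The 250 bases before the RefSeq start of each gene (assembly GRCr8) are shown because the genes sit on different chromosomes and their levels ran together. The capitals mark TGACGTCA, the full cyclic AMP response element, and TATAA, the core of a TATA box, both searched on both strands.
Ucn promoter, chr6:30957836-30958085, plus strand: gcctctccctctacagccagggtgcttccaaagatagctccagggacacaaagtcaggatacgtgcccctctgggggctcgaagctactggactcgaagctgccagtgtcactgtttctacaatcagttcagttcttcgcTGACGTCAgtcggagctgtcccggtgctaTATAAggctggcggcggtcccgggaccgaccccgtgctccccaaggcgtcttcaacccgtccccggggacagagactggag
Cartpt promoter, chr2:32991236-32991485, minus strand: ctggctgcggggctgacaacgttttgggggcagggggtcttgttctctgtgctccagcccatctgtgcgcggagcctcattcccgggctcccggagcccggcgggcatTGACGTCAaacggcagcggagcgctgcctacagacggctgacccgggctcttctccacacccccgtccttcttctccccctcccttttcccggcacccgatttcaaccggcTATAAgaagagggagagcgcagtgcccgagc
Counted from the RefSeq start, TGACGTCA stood at bases -110 to -103 of Ucn and at -142 to -135 of Cartpt. TATAA stood at -81 to -77 of Ucn and at -31 to -27 of Cartpt. The longer TATA form TATAAA was also searched and stood in the window of neither gene. Of 33469 RefSeq promoter windows of the same length, 531 (1.59%) held TGACGTCA, 23.97% held TATAA and 12.93% held TATAAA. Both matches are letters in a window, and the files hold no measure of binding there.

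The depth of the libraries ran from 4.39 to 6.03 gigabases of aligned sequence behind the deposited values, with a median of 5.15. The label of the tissue was checked with markers. The neuronal marker Rbfox3 ran from 62.7 to 101.9 TPM and the astrocyte marker Gfap from 229 to 530. Chat, the acetylcholine-making enzyme, was nearly lacking in 3 libraries (saline-sired 1 at 0.0955 TPM, saline-sired 6 at 0.569 and morphine-sired 1 at 1.15) and ran from 17.1 to 36.4 in the other 9. Saline-sired 6 was also far below the others in Ucn and Cartpt, so values of likeness to the pair are given with and without it.

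Cartpt was one of the most abundant transcripts of the tissue and Ucn was about an order of magnitude below it. In saline-sired libraries Cartpt was lowest at 155 TPM, with a median of 1088 and a highest value of 1449. In morphine-sired libraries it ran from 979 to 2355 TPM with a median of 1374. The groups overlapped, and the lowest value stood alone: the next library, saline-sired 2, held 909 TPM.

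From the lowest up, the level of Cartpt was 155 TPM in saline-sired 6, 909 in saline-sired 2, 979 in morphine-sired 1, 986 in saline-sired 1, 1191 in saline-sired 3, 1194 in morphine-sired 5, 1291 in morphine-sired 2, 1337 in saline-sired 5, 1449 in saline-sired 4, 1458 in morphine-sired 4, 1683 in morphine-sired 6 and 2355 in morphine-sired 3. Among the 24540 genes tested Cartpt ranked 24 in morphine-sired 3 and 1069 in saline-sired 6.

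Ucn ran from 10.5 to 185 TPM in saline-sired libraries with a median of 112, and from 86.7 to 337 TPM in morphine-sired libraries with a median of 152. The groups overlapped here too, and saline-sired 6 and morphine-sired 3 again lay at the ends. From the lowest up, the level of Ucn was 10.5 TPM in saline-sired 6, 86.7 in morphine-sired 1, 105.0 in saline-sired 2, 106.4 in saline-sired 1, 118 in saline-sired 3, 124 in saline-sired 5, 129.5 in morphine-sired 2, 139 in morphine-sired 5, 166 in morphine-sired 4, 183 in morphine-sired 6, 185 in saline-sired 4 and 337 in morphine-sired 3. Each library is a single animal, so neighbours in these orders, such as saline-sired 2 and saline-sired 1 for Ucn, have no replicate error between them. Ucn ranked 410 of the genes tested in morphine-sired 3 and 10566 in saline-sired 6.

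**Figure D1:**
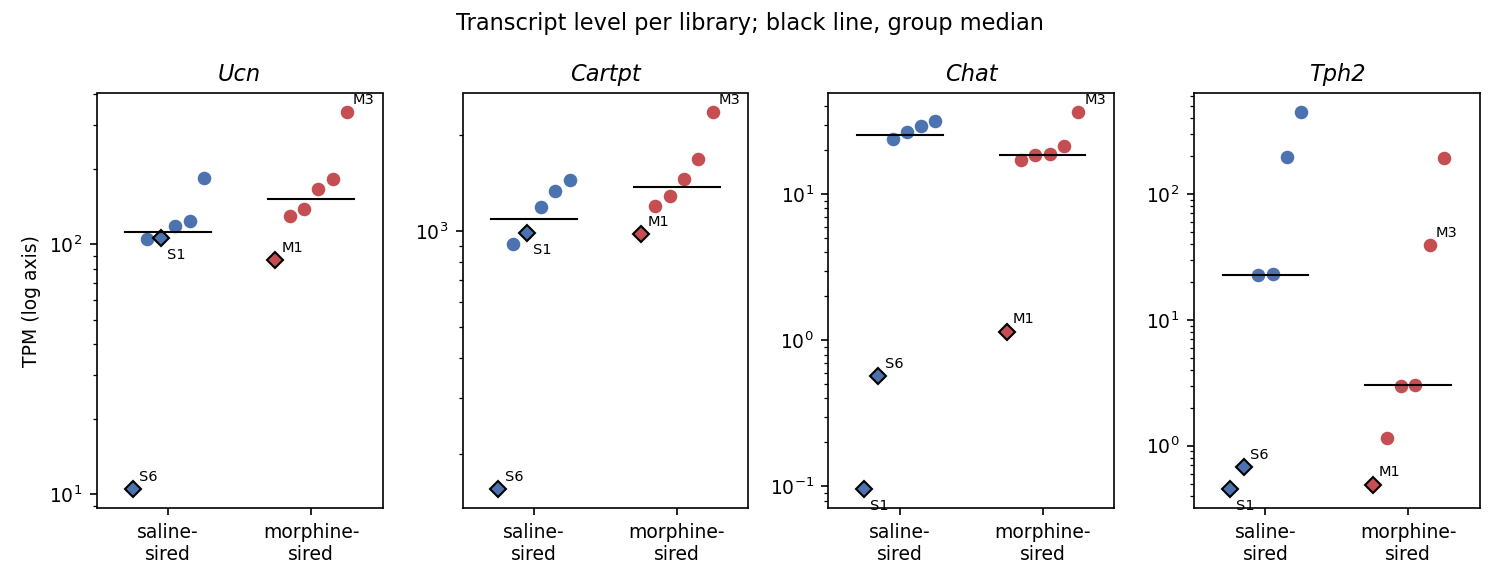
Level of Ucn, Cartpt, Chat and Tph2 in each of the 12 libraries, in TPM on log axes, with 1 point per library and a black line at the group median. Diamonds mark saline-sired 1 (S1), saline-sired 6 (S6) and morphine-sired 1 (M1), in which Chat was at most 1.15 TPM; of these only S6 is also far below the other libraries in Ucn (10.5 TPM) and Cartpt (155 TPM), and M3 (morphine-sired 3) is highest in both.

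The span was wider for Ucn than for Cartpt. The highest library held 32.2 times the lowest level of Ucn and 15.2 times the lowest level of Cartpt. Without saline-sired 6 these ratios were 3.89 and 2.59. The coefficient of variation over the 12 libraries was 55.1% for Ucn and 41.6% for Cartpt, and 45.3% and 30.2% without saline-sired 6. The median of the other 11 libraries was 12.3 times the level of saline-sired 6 for Ucn and 8.34 times for Cartpt.

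Few genes were as low in saline-sired 6 as these. On the log2(TPM + 1) scale, 31 of the 24540 genes tested, Ucn included, lay at least as far below the median of the other 11 libraries as Ucn did. For Cartpt the number was 43. Over all genes saline-sired 6 did not stand apart: it held the lowest of the 12 values for 9.18% of all genes tested, against 19.3% for morphine-sired 2, and its median Pearson r with the other libraries was 0.961, within the range of 0.954 to 0.967 over all libraries. About 90 reads of Ucn were estimated in saline-sired 6, against 835 in saline-sired 1.

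The 2 genes were high and low in the same libraries. Pearson's r of their log2(TPM + 1) was 0.991 and Spearman's rho 0.944 over 12 libraries, given as a description because the genes were chosen for this pattern. Without saline-sired 6, r was 0.953 and rho 0.927. Without saline-sired 6 and morphine-sired 3, the 2 libraries farthest from the median of Cartpt, r was 0.900 over 10 libraries. Within the morphine-sired group r was 0.984. Within the saline-sired group it was 0.993 with saline-sired 6 and 0.839 over the 5 libraries without it. Spearman's rho was 1 in the saline-sired group with and without saline-sired 6, and 0.943 in the morphine-sired group.

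Ucn spanned more than Cartpt on the log scale. The fitted slope was 1.20 log2 units of Ucn per log2 unit of Cartpt, and 1.29 without saline-sired 6. The ratio of Cartpt to Ucn in TPM therefore ran from 6.98 in morphine-sired 3, the library highest in both, to 14.8 in saline-sired 6, the lowest in both. Its median was 9.23, and it was 10.2 ± 2.45 (SD, n = 6) in the saline-sired group and 9.14 ± 1.44 (SD, n = 6) in the morphine-sired group.

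**Figure D2:**
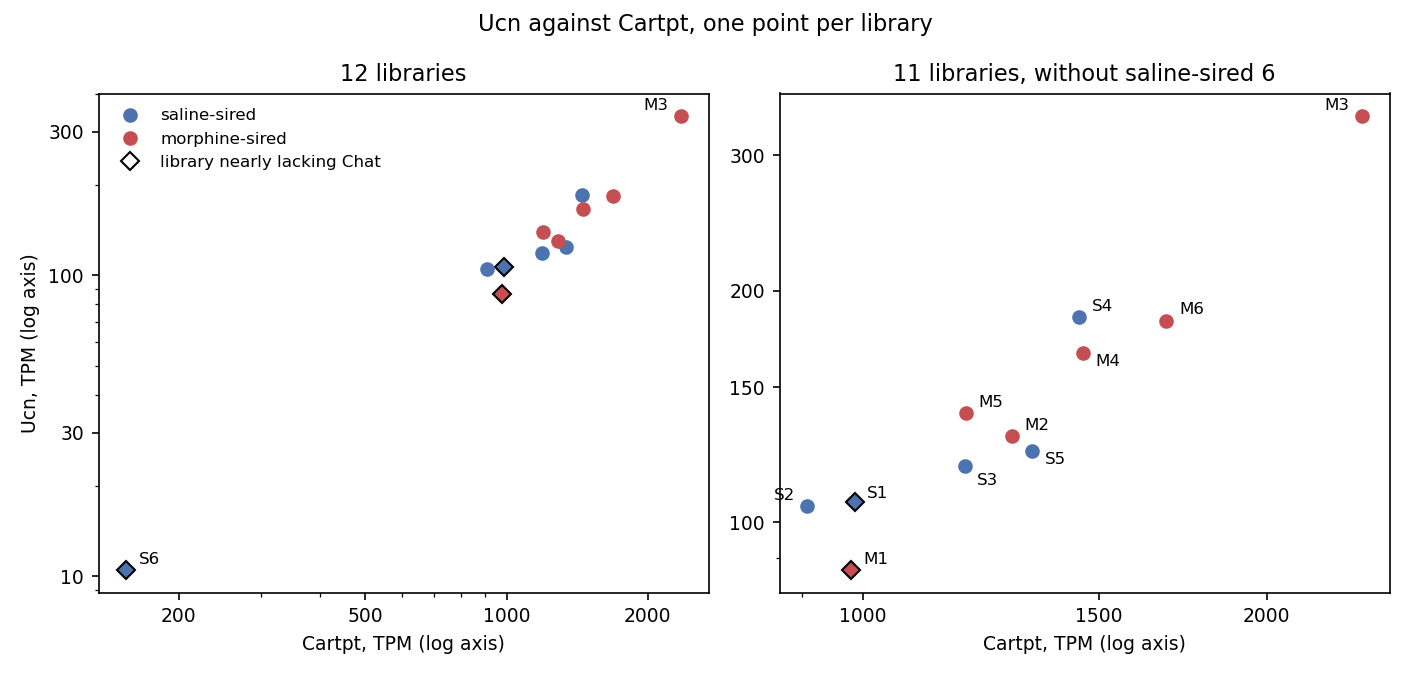
Ucn against Cartpt in TPM on log axes, 1 point per library, for all 12 libraries (left) and for the 11 without saline-sired 6 (right, with its own axes). Libraries of both groups lie along the same line; S6 lies far from the rest at 155 TPM of Cartpt and 10.5 TPM of Ucn, and r falls from 0.991 to 0.953 without it.

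Cartpt was read from 2 transcript models, and both followed the same order of libraries at the ends. Alternative splicing of rat Cartpt is known to give a long and a short precursor. The annotated model, 840 bases, and the model assembled in the study, 801 bases, share both ends and differ only in the middle exon, which has 123 bases in the first and 84 in the second. The extra stretch of 39 bases, 13 codons, lies at chr2:30126664-30126702 (Rnor_6.0, minus strand).

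The short model held most of the level in every library. It ran from 98.0 TPM in saline-sired 6 to 1503 TPM in morphine-sired 3, and the long model from 56.8 to 852 TPM in the same libraries. The share of the short model in Cartpt TPM lay between 63.1% in saline-sired 4 and 66.1% in morphine-sired 4, with a median of 64.5%, although the sum of both models spanned 15.2-fold. This share did not enter the choice of the genes and was tested between the groups. It was 64.4% ± 1.07 (SD, n = 6) after a saline sire and 64.8% ± 1.12 (SD, n = 6) after a morphine sire, a difference of 0.40 percentage points with p = 0.537 (exact two-sided permutation test, 924 assignments). The groups overlapped over nearly their whole range. The share is StringTie's division of shared reads between 2 overlapping models, and reads over the middle exon alone decide it.

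**Figure D3:**
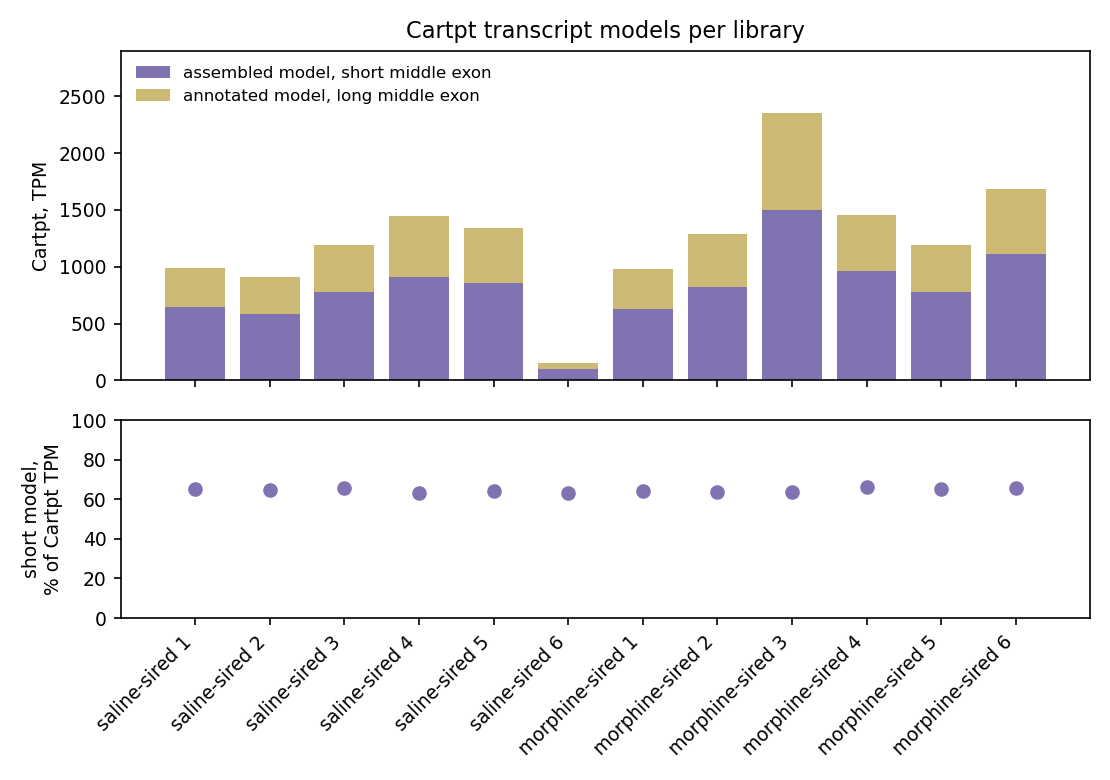
Cartpt in TPM per library, divided into the assembled model with the short middle exon and the annotated model with the long one (stacked bars, linear axis from 0), and the share of the short model in percent below. The bars differ 15.2-fold in height while the share stays between 63.1% and 66.1%.

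Coverage along the transcripts of these 2 genes was compared, which is no measure of RNA quality over a whole library. The ratio of mean read depth on the 5′ exon to that on the 3′ exon ran from 1.64 to 2.23 for Cartpt and from 0.397 to 0.615 for Ucn. For Cartpt it was 1.88 ± 0.15 (SD) in the saline-sired group and 2.05 ± 0.13 in the morphine-sired group, lowest in saline-sired 1. For Ucn it was 0.51 ± 0.064 and 0.47 ± 0.079. These group differences were not tested. Saline-sired 6 lay inside the range for Cartpt and was the highest for Ucn, where the 5′ exon has 35 bases and few reads cover it.

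Morphine-sired libraries had the higher mean level of both genes, with overlapping groups. Since the pair was chosen by its TPM in these libraries, its own group differences are given as descriptions with no p. The design has 1 contrast, sire treatment, and the tool was limma on log2(TPM + 1) over all 24540 genes, with Benjamini-Hochberg adjustment. It called 0 genes (0% of those tested) at an adjusted p under 0.05, with 790 genes (3.22%) at an unadjusted p under 0.05. limma-voom on estimated reads also called 0, with 744 (3.03%) at an unadjusted p under 0.05.

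Ucn was 108 ± 56.2 TPM (SD, n = 6) after a saline sire and 174 ± 86.8 TPM (SD, n = 6) after a morphine sire. The difference, morphine-sired minus saline-sired, was 0.92 ± 0.58 (SE) on the log2(TPM + 1) scale. Of the 36 pairs of 1 library from each group, the morphine-sired one was higher in 27. Without saline-sired 6 the difference was 0.35 ± 0.28, and the ratio of the group means fell from 1.61 to 1.36.

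Cartpt was 1004 ± 464 TPM (SD, n = 6) after a saline sire and 1493 ± 485 TPM (SD, n = 6) after a morphine sire. The difference was 0.79 ± 0.47 (SE) on the same scale. The morphine-sired library was higher in 28 of 36 pairs. Without saline-sired 6 the difference was 0.31 ± 0.20, and the ratio of the means fell from 1.49 to 1.27. Without saline-sired 6 and morphine-sired 3, the differences were 0.13 ± 0.21 for Ucn and 0.17 ± 0.16 for Cartpt.

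The transcript models of the pair differed by about as much as the genes. Of 50419 transcripts that reached the same mean, limma called 1 (0.00198%), an assembled transcript of the Gnao1 locus, named here after its value was seen. With 1 library left out, 0 to 2 transcripts were called, and this one in 3 of 12 fits. The Ucn transcript differed by 0.92 ± 0.59, the long Cartpt model by 0.77 ± 0.48 and the short model by 0.80 ± 0.49 on the log2(TPM + 1) scale.

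Among the 20 neuropeptide precursors compared, Cartpt had the highest mean. Over a list of 18 other neuropeptide genes with Ucn and Cartpt, compared in TPM, Cartpt had the highest mean level (1249 TPM) and ranked 1 or 2 in every library. The somatostatin gene Sst (181 TPM), the cholecystokinin gene Cck (157) and Ucn (141) followed. Within this list, which does not hold Oxt or Avp, Ucn ranked from 2 to 9 over the libraries. The enkephalin gene Penk (98.9 TPM) and the substance P gene Tac1 (72.4) came after it.

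Of the other CRF family genes, none followed the pair closely. Likeness is here the smaller of a gene's 2 Pearson r of log2(TPM + 1), with Ucn and with Cartpt, over the 12 libraries. Crh, the gene of CRF itself, ran from 2.24 to 8.84 TPM with a likeness of 0.53, and of 0.30 without saline-sired 6. Ucn2 and Ucn3, the other urocortin genes, had means of 0.150 and 0.0657 TPM and lay below the filter.

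The receptors and the binding protein were low. Crhr1 ran from 7.01 to 17.4 TPM (likeness -0.27, and -0.39 without saline-sired 6) and Crhr2 from 0.970 to 4.31 TPM (likeness 0.066, and -0.092 without it). Crhbp, the secreted protein that binds CRF and urocortin, ran from 4.29 to 11.1 TPM with a likeness of 0.68, and of 0.47 without saline-sired 6. It was lowest in saline-sired 6 and highest in morphine-sired 3, as Ucn and Cartpt were. Limma called 0 of the 4 tested CRF family genes, as it called 0 of all 24540 genes tested. The median difference of these 4 genes was -0.14, against -0.0022 over all genes tested.

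Genes reported in the peptide neurons of the Edinger-Westphal nucleus mostly did not share the pattern. Of 14 such genes 13 were tested, and 1 had a likeness of at least 0.8, against 56 of 24538 genes other than the pair (0.228%). That gene was Esr2, an estrogen receptor, at 0.443 TPM in saline-sired 6 and 0.703 to 1.21 in the other libraries (likeness 0.83). Without saline-sired 6 its likeness was 0.61, and 0 genes of the list reached 0.8. Tac1 stood next (likeness 0.74, and 0.44 without saline-sired 6), at 29.3 TPM in saline-sired 6 and up to 137 in morphine-sired 3. The neuropeptide gene Adcyap1 came after it (likeness 0.40, and 0.27 without saline-sired 6). It was 19.25 TPM in saline-sired 6, lowest in morphine-sired 2 (16.2) and highest in morphine-sired 3 (31.2). The median likeness of the list was 0.027, against -0.00049 over all genes tested, and 0.055 against -0.046 without saline-sired 6.

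Of the 13 tested genes of that list 3 were lowest in saline-sired 6 (23.1%, against 9.18% of all genes tested), namely Esr2, Tac1 and Calcr. Calcr was 1.99 TPM there and 2.33 to 21.7 elsewhere (likeness 0.33, and 0.0060 without saline-sired 6). The genes that follow, named after their values were seen, were not lowest in that library. Cck was highest in morphine-sired 1 (235 TPM) and saline-sired 6 (233 TPM), and 98.6 to 194 in the other 10 libraries. Slc17a6, the vesicular glutamate transporter of midbrain neurons, was highest in saline-sired 6 at 206 TPM. It was nearly as high in morphine-sired 1 (204) and saline-sired 1 (202), which also nearly lacked Chat, and 78.2 to 176 in the other 9 libraries. Nucb2, the nesfatin precursor gene, ran from 9.76 to 14.4 TPM (likeness 0.29, and 0.19 without saline-sired 6). Ghsr, the ghrelin receptor, had a likeness of 0.027 (0.29 without that library), Lepr, the leptin receptor, of -0.35 (-0.62), and Trpa1, an ion channel, of -0.11 (-0.22). The summed level of the 13 genes was 375.7 to 547 TPM over the saline-sired libraries and 453.6 to 581 over the morphine-sired ones, with none at 0 in saline-sired 6.

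Cholinergic markers moved in part with the pair, while the median likeness of the serotonergic list changed sign without saline-sired 6. Saline-sired 1, saline-sired 6 and morphine-sired 1, the libraries nearly lacking Chat, were also among the 4 lowest for both Ucn and Cartpt. In saline-sired 6, Ucn stood at 7.56% of the median of the other 9 libraries and Cartpt at 11.6%. In saline-sired 1, Ucn stood at 76.7% and Cartpt at 73.7%, while Chat stood at 0.401%. In morphine-sired 1, Ucn stood at 62.5%, Cartpt at 73.2% and Chat at 4.82%. In saline-sired 1 both genes lay within the range of the other 9 libraries, near its lower end. In morphine-sired 1 Cartpt did too, while Ucn, at 86.7 TPM, lay below the lowest of the 9 (105.0). The relation of the pair to Chat was not tested.

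The vesicular acetylcholine transporter Slc18a3 and the choline transporter Slc5a7 followed Chat. Slc18a3 was 0.724 to 2.103 TPM in these 3 libraries and 20.5 to 54.1 in the other 9. Slc5a7 was 1.90 to 2.52 TPM against 12.4 to 45.4. Isl1, a motor neuron transcription factor, was at 0 in saline-sired 6 and between 0.725 and 2.17 TPM in the other 9. Of the 15 genes of the cholinergic list 12 were tested. Their median likeness was 0.60 (0.47 without saline-sired 6) and none reached 0.8. Their summed level spanned 626 to 1663 TPM over the saline-sired libraries and 608 to 1282 over the morphine-sired ones. The part of these cells in the levels of Ucn and Cartpt was not tested.

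Tph2, the serotonin-making enzyme, and Slc6a4, the serotonin transporter, were also low in the 3 libraries. Tph2 was 0.450 to 0.672 TPM there and 1.15 to 445 in the other 9. Slc6a4 was at most 0.0900 TPM there and 0.128 to 398 in the other 9, so low levels were not confined to the 3. Morphine-sired 6 was the lowest of the 9 for both genes. Slc6a4 and the serotonergic transcription factor Fev were at 0 in saline-sired 6. The 10 serotonergic genes had a median likeness of 0.27, and of -0.18 without saline-sired 6. Their summed level spanned 38.8 to 1182 TPM over the saline-sired libraries and 52.2 to 579 over the morphine-sired ones, and their part in the result was not tested. Without the 3 libraries nearly lacking Chat the group difference was 0.46 ± 0.28 for Ucn and 0.36 ± 0.20 for Cartpt, and r of the pair was 0.945 over 9 libraries.

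The library highest in the pair also stood apart in hypothalamic peptides. Morphine-sired 3 held 348 TPM of the oxytocin gene Oxt and 123 TPM of the vasopressin gene Avp, while the other morphine-sired libraries reached at most 3.72 and 4.61. The next library was saline-sired 3, with 17.8 TPM of Oxt and 28.0 TPM of Avp. Morphine-sired 3 had the highest Chat as well, 36.4 TPM. The 9 tested genes of the hypothalamic list summed to 16.4 to 71.1 TPM over the saline-sired libraries and 22.0 to 525 over the morphine-sired ones, and their part in the level of Ucn and Cartpt was not tested. Their median likeness was 0.32, and 0.29 without saline-sired 6.

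Across the remaining lists no gene reached a likeness of 0.8. The median likeness, with its value without saline-sired 6 in parentheses, was 0.30 (0.22) for 18 other neuropeptides, 0.29 (-0.048) for 6 catecholamine genes, 0.24 (0.16) for 7 ependymal genes and 0.15 (0.0079) for 15 genes of peptide processing and dense core vesicles. It was 0.20 (0.24) for 9 astrocyte, 0.15 (0.064) for 10 choroid plexus, 0.13 (0.033) for 10 neuronal, 0.098 (0.030) for 7 forebrain and 0.074 (0.14) for 9 microglial genes. It was -0.11 (-0.053) for 9 thalamic and collicular, -0.16 (-0.43) for 8 cerebellar and -0.26 (-0.11) for 10 oligodendrocyte genes. The median of the catecholamine list thus changed sign without that library. Limma called no gene of any list in the group comparison. It called 0 of all 24540 genes tested, so this says nothing about the lists.

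Genes of the machinery that stores and cuts peptide precursors differed in how far they ranged. Scg5, a chaperone of prohormone convertase, ran from 461 to 536 TPM over all libraries (likeness 0.50, and 0.0079 without saline-sired 6). Chga, a granin of dense core vesicles, ran from 383 to 529 TPM (likeness 0.47, and 0.24 without that library). Cadps2, a vesicle priming factor, ran from 13.7 TPM in saline-sired 6 to 33.1 in saline-sired 2 (likeness 0.50, and 0.0063 without saline-sired 6).

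Genes that followed both members were few and most of them rested on 1 library. A likeness of at least 0.8 was found for 56 genes, 38 of them with a symbol, and 3 genes reached 0.9. Dlk1 lay just inside 0.8 (0.8002) and Satb1 just outside (0.799999). All of the 15 named genes most like the pair were lowest in saline-sired 6, and 7 were highest in morphine-sired 3. Without saline-sired 6 their likeness ran from 0.25 to 0.81 with a median of 0.55, and 15 genes in all reached 0.8. Only 2 genes reached 0.8 with and without that library.

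Those 2 were Cd63 and Sumf1. Cd63, a tetraspanin of late endosomes and secretory granules, was 184 TPM in saline-sired 6, 222 to 269 in the other libraries and highest in morphine-sired 3. Its likeness was 0.94, and 0.81 without saline-sired 6. Sumf1, the enzyme that activates sulfatases, was 28.1 TPM in saline-sired 6 and 31.3 to 36.3 elsewhere, again highest in morphine-sired 3 (likeness 0.93, and 0.80 without saline-sired 6). Both genes moved over a narrow range: saline-sired 6 held 78.7% of the median of the other libraries for Cd63 and 83.1% for Sumf1, against 8.10% for Ucn and 12.0% for Cartpt.

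The deepest drop among the 15 named genes was in Bcl2a1 and Chodl. Bcl2a1, an anti-apoptotic BCL2 family gene, was 0.236 TPM in saline-sired 6 and 0.843 to 1.49 elsewhere (likeness 0.88, and 0.52 without saline-sired 6). Chodl, which codes for the membrane lectin chondrolectin, was 1.79 TPM in saline-sired 6, 4.41 to 13.7 elsewhere and highest in morphine-sired 3 (likeness 0.84, and 0.64 without saline-sired 6). Caln1, a neuronal calcium-binding protein, was 14.5 TPM against 21.0 to 37.7 (likeness 0.87, and 0.56 without saline-sired 6).

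Of transcriptional regulators, the retinoid receptor Rxrg was 5.73 TPM in saline-sired 6 and 7.90 to 13.2 elsewhere (likeness 0.88, and 0.64 without saline-sired 6). Meis2, a homeobox factor of midbrain development, was 8.07 TPM against 11.0 to 14.95 (likeness 0.86, and 0.42 without saline-sired 6). The metabolic genes were Gyg1, the primer of glycogen (24.8 TPM against 37.1 to 54.6), Mccc1, a subunit of a leucine-degrading carboxylase (12.9 against 14.6 to 17.8), and Odc1, the first enzyme of polyamine synthesis (58.9 against 68.4 to 75.6). The likeness of Odc1 fell from 0.84 to 0.25 without saline-sired 6.

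The others were the ribosomal protein gene Rpl41 (614 TPM against 830 to 1036), Cgref1 (41.9 against 51.4 to 62.9), Ivns1abp (51.2 against 67.2 to 101), the protocadherin gene Pcdhb12 (2.00 against 2.81 to 4.16) and Adhfe1 (28.9 against 38.4 to 46.2). Rpl41, Bcl2a1 and Pcdhb12 have close copies in the genome and the locus of Adhfe1 holds several symbols, so their values are uncertain. Assembled transcripts carried most of the level of Gyg1 (87.2%), Caln1 (98.0%), Meis2 (90.8%), Chodl (93.4%) and Odc1 (93.1%). Of the 15 genes 13 were matched to a RefSeq promoter, and 0 held TGACGTCA in the 250 bases before the start. Over all RefSeq promoter windows the share was 1.59%, so 0 of 13 is near that share and does not set these genes apart.

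Genes that ran opposite to the pair were more numerous. Both r were at most -0.8 for 73 genes, and for 18 without saline-sired 6. Of these, 1 gene, Etv1, was in both counts. Etv1, an ETS transcription factor, had the lowest likeness (-0.95, and -0.85 without saline-sired 6). It was 25.5 TPM in saline-sired 6 and had its lowest level, 9.77, in morphine-sired 3. Aggf1, an angiogenic factor gene, was 30.2 TPM in saline-sired 6 and 22.8 to 26.7 elsewhere (likeness -0.93, and -0.80 without saline-sired 6). Ypel2 was 36.5 TPM against 18.2 to 29.0, and the kinase gene Ttbk1 46.3 against 26.0 to 32.5. Nlrp10, an NLR family gene, was 21.7 TPM in saline-sired 6, 2.91 in morphine-sired 1 and at most 0.244 in the other 10.

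**Figure D4:**
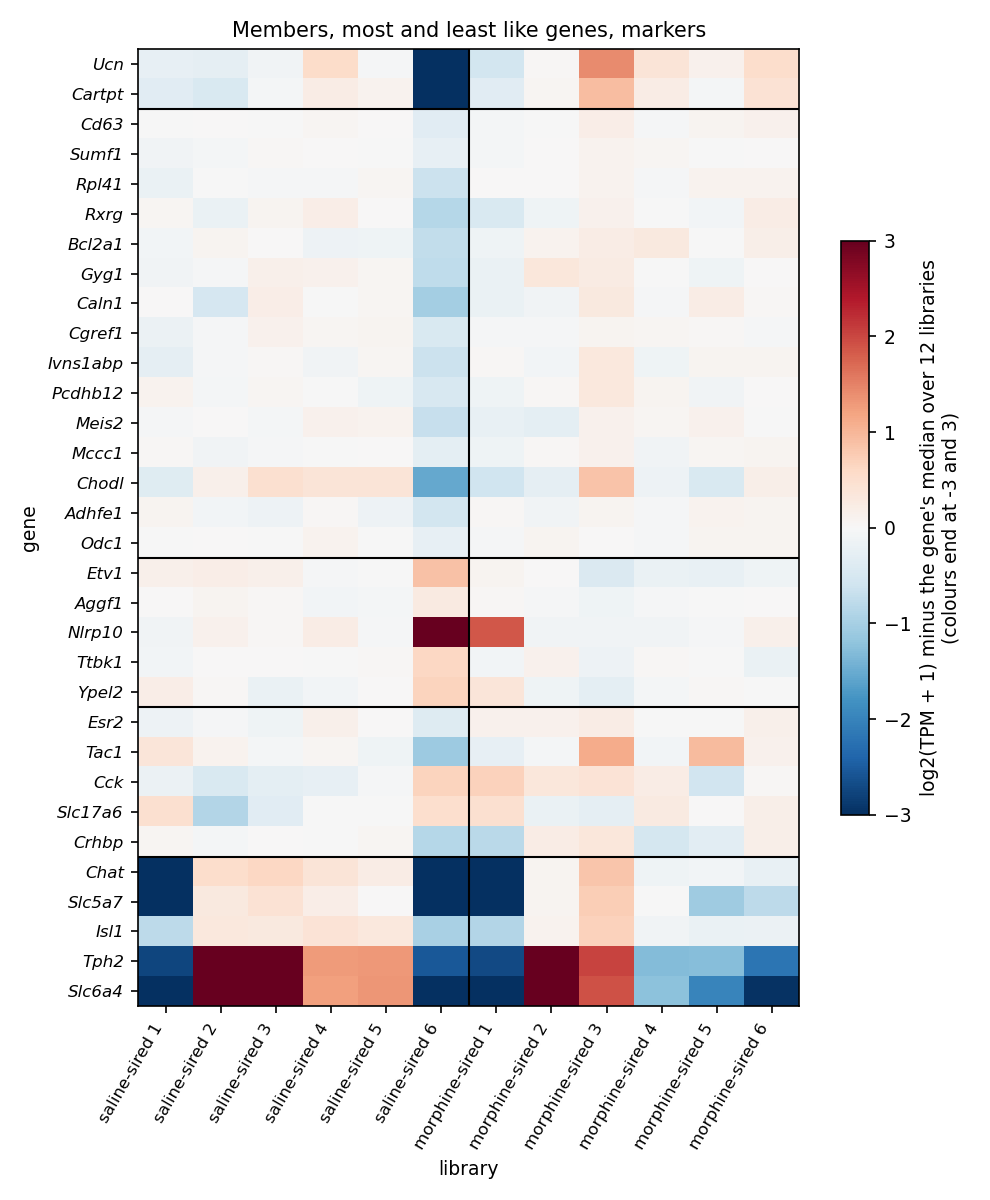
Level of the pair, the 15 genes most like it, the 5 least like it, and markers, as log2(TPM + 1) minus each gene's median over the 12 libraries (red above, blue below). The column of saline-sired 6 is blue for the pair and all 15 genes most like it, most deeply for Ucn and Cartpt; Chat and Slc5a7 are also blue in saline-sired 1 and morphine-sired 1, where the pair is only slightly below its median.

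**Figure D5:**
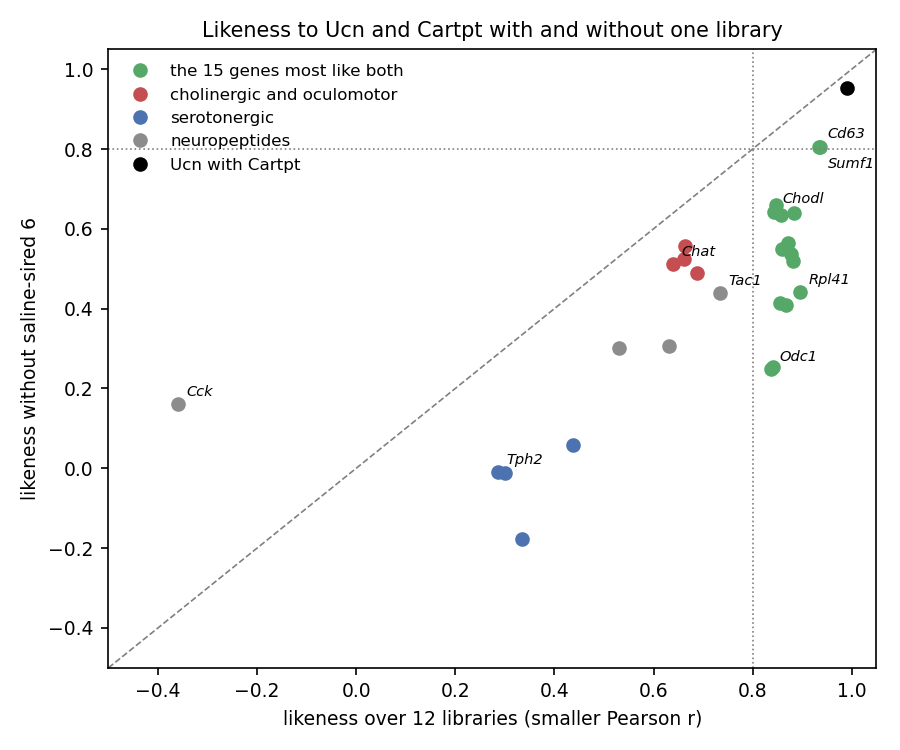
Likeness to Ucn and Cartpt over 12 libraries (horizontal) and over the 11 without saline-sired 6 (vertical), for the 15 named genes most like the pair, 4 cholinergic, 4 serotonergic and 4 neuropeptide genes, and the pair itself; the dashed line marks equal values and the dotted lines 0.8. Cd63 and Sumf1 stay at 0.81 and 0.80, while the other 13 named genes fall below 0.8, Odc1 to 0.25.

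Genes next to the pair in the genome were less like it than the 15 named genes. Within 100 kilobases of Ucn 16 other tested loci had a likeness from -0.59 to 0.60. The highest was Atraid (0.60), which stood at -0.021 without saline-sired 6. The nearest, Trim54, lies 395 bases away on the opposite strand with a mean of 2.49 TPM and a likeness of 0.30, and of 0.40 without saline-sired 6. The 1 tested gene within 100 kilobases of Cartpt was Mccc2, with a likeness of -0.022, and of -0.080 without that library. No tested gene overlapped either member. Among the 15 named genes, Cgref1 lies on the chromosome of Ucn, at chr6:26797126-26809129, outside this window (likeness 0.87, and 0.41 without saline-sired 6).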

How the data were processed

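PolyA RNA of 12 periaqueductal grey samples was sequenced. Reads were mapped to Rnor_6.0, per the submitters' processing notes, which list HISAT2 2.2.0 and StringTie 2.1.2 beside Trimmomatic 0.39, FastQC 0.11.9, DESeq2 1.28.1 and SAMtools 1.11. Per the file headers, StringTie 1.3.6 wrote the files, so the version differs. Strandedness and pairing are not given in the sources used here.

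The deposited coverage (signal, mean read depth per base), FPKM and TPM are given by the authors for 76232 transcripts, 35169 of them assembled. The deposited series table holds log2 values that match log2(FPKM + 1) of the 41063 annotated transcripts within 4.93e-08, and served only for symbols. TPM is relative to a library's total.

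TPM was summed per locus and symbol, and assembled transcripts counted toward a symbol where their locus has a single one. Genes whose mean reached 0.5 TPM entered limma 3.58.1, run in R 4.3.3 (intensity trend, two-sided, Benjamini-Hochberg) on log2(TPM + 1), which understates changes of low genes. The script was tested on simulated data. The short share of Cartpt had an exact permutation test. Depth came from the ratio of coverage to FPKM, and reads from an inferred length of 135 bases. Of lowly covered transcripts with at least about that many covered bases, 16.8% held a multiple of it within 1 base, against 2.22% by chance. A length of 90 bases came next (12.9% against 3.33% by chance), so the estimated read numbers are uncertain. Other steps used scipy 1.17.1, pandas 2.3.3, numpy 2.4.6 and matplotlib 3.10.9 under Python 3.11.15.

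The genes, the 17 lists and the tests were chosen with earlier results of these data known. Genes were named by rule: the pair, the 15 with a symbol most like it, the 5 least like it, the CRF family, up to 4 per list of highest likeness, and markers. Cck, Slc17a6, Nucb2, Ghsr, Lepr, Trpa1, Fev, Dlk1, Satb1, Sst and the neighbours were named outside it, after their values were seen. Of 169 listed genes 168 were found and 158 tested. Promoters came from RefSeq on GRCr8. Coordinates of transcripts are those of the files. Alternatives were the pseudocount, the filter, annotated transcripts only, FPKM, quantile normalization, limma-voom, Spearman's rho, deviations from group means and leaving out libraries.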

Additional observations from a re-analysis of the deposited data

Results flagged for a closer look

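Within a group of 6 libraries, a value was singled out when its gap to the nearest library was, as a share of the group's range on the log2(TPM + 1) scale, above Dixon's 95% critical value. Of 114 groups examined, 24 held such a value, 16 of them in saline-sired 6. Chance gives about 1 in 20 only for groups chosen without regard to these values. The pair, the genes most and least like it and the list genes of highest likeness were chosen by their levels in these libraries. Their flags, above all those in saline-sired 6, are not independent of that choice, and the chance rate is no measure for them.

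In saline-sired 6 the low values were Ucn (10.5 TPM, next 105.0), Cartpt (155, next 909), Cd63 (184, next 230.1), Rpl41 (614, next 830), Rxrg (5.73, next 9.63), Bcl2a1 (0.236, next 0.843), Gyg1 (24.8, next 40.1), Meis2 (8.07, next 13.1), Adhfe1 (28.9, next 38.4), Odc1 (58.9, next 69.3), Crhbp (4.29, next 8.30) and Tac1 (29.3, next 57.8). The high values there were Etv1 (25.5 TPM, next 15.7), Nlrp10 (21.7, next 0.244), Ttbk1 (46.3, next 30.7) and Cck (233, next 142).

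Morphine-sired 1 was low in Chat (1.15 TPM, next 17.1) and Slc18a3 (2.103, next 20.5) and high in Nlrp10 (2.91, next 0.189). Morphine-sired 3 was high in Oxt (348 TPM, next 3.72), Avp (123, next 4.61) and Penk (172, next 87.1). Ghsr was high in morphine-sired 6 (6.55 TPM, next 5.19), and Gfap in saline-sired 2 (397 TPM, next 287).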

How the results depend on the processing

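The group differences of Ucn and Cartpt stayed positive under every alternative run. With 1 library left out, the log2 difference ran from 0.35 to 1.15 for Ucn and from 0.31 to 0.95 for Cartpt, lowest without saline-sired 6. The number of genes called ran from 0 to 1. The single calls were unnamed loci without saline-sired 4 (adjusted p = 0.0398, limma) and without saline-sired 6 (0.0418). Without the 3 libraries nearly lacking Chat, a setting added after the data were seen, limma called 1 gene, AABR07044389.1 (adjusted p = 0.00143).

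The genes like the pair depended on the libraries. The number with a likeness of at least 0.8 ran from 15 (without saline-sired 6) to 108 (without saline-sired 2) with 1 library left out. It was 96 without saline-sired 1, 93 without morphine-sired 2, and 89 without morphine-sired 1 or 5. It was 12 by Spearman's rho, 90 with a pseudocount of 0.1 TPM and 15 without the lowest and the highest library. Of the 15 named genes, 2 to 15 kept 0.8 with 1 library left out, 6 with annotated transcripts only, and 0 by Spearman's rho, without the 3 libraries nearly lacking Chat, or without the lowest and the highest library. The r of the pair ran from 0.953 to 0.993 with 1 library left out, was 0.944 as Spearman's rho, 0.945 without the 3 libraries and 0.900 without the lowest and the highest. The difference in the short Cartpt share ran from 0.13 to 0.66 percentage points. The cause of these shifts was not tested. No paired analysis was possible because the labels give each animal its own number and no number shared between the groups.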
